A study of Mus musculus with 6 samples.

Results

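Genes that act around SRY in the fetal gonad were read in whole brain of male mice that carried a human SRY transgene. The list held Fgf9, Ptgds, Amh, Nr5a1, Cbln4, Dhh, Cyp26b1, Nr0b1, Wt1 and Gata4, and its members were taken by gene symbol from the array table. Of these 10 genes, 9 had a probe among the 18138 gene symbols of the table, and Wt1 was not analysed here. The 9 genes were read by 10 of the 25697 probes, since Nr5a1 had 2 probes.

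The brains came from males of strain FVB (FVB/N in the study's methods) at postnatal day 6, with 3 arrays for hSRY-OFF and 3 arrays for hSRY-ON. All 6 mice carried Signalox-hSRY, a single-copy transgene at the H11 locus of chromosome 11, in which the ubiquitous CAG promoter is followed by a loxP-flanked DsRed2 cassette and then by FLAG-tagged human SRY joined through an IRES to EGFP. In hSRY-OFF mice the cassette was intact, so that DsRed2 was made and SRY was silent. In hSRY-ON mice Cre from the oocyte of Ddx4-Cre mothers had removed the cassette in the early embryo, and the mice used had not inherited Ddx4-Cre themselves. The groups therefore differed in DsRed2, SRY and EGFP at the same time, and the CAG promoter is active in most cell types rather than in those that express SRY naturally. The parents and litters of the hSRY-OFF mice are not stated, so mother and litter may differ between the groups as well. The study also reports that hSRY-ON pups were growth retarded at this age, suckled little and had smaller brains. Effects of growth and feeding cannot be told apart from those of SRY here. No probe for human SRY was used here, so the transgene itself was not read, and the probe for mouse Sry was detected on 0 of the 6 arrays. The RNA was that of a mixed organ, in which fewer cells of a type and less RNA per cell cannot be told apart.

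In the fetal testis SRY starts the Sertoli cell programme by raising Sox9, with NR5A1 as its partner and with GATA4 and WT1 acting upstream. FGF9 and prostaglandin D2, which is made by the enzyme encoded by Ptgds, then help to keep Sox9 active, while AMH, DHH and CYP26B1 carry the signals of Sertoli cells to the ducts, the Leydig cells and the germ cells. Several of these genes also work in the nervous system. Ptgds encodes the prostaglandin D synthase of leptomeninges, choroid plexus and oligodendrocytes, which is secreted into cerebrospinal fluid, Cbln4 encodes a secreted synapse organizer of the cerebellin family, Fgf9 encodes a growth factor of neurons and glia, and Cyp26b1 encodes an enzyme that breaks down retinoic acid.

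Of the 9 genes, 4 (Ptgds, Cbln4, Fgf9 and Cyp26b1) were detected in brain on all 6 arrays, and the other 5 (Amh, Nr5a1, Dhh, Nr0b1 and Gata4) were each detected on at most 1 array. A probe counted as detected on an array when its detection p-value, the share of negative controls at least as bright, was under 0.05. Of the 10 probes, 4 were detected on all arrays, 2 on 1 array each and 4 on 0 arrays, whereas of all probes 49.5% were detected on all arrays, 4.23% on exactly 1 and 38.1% on none. The hSRY-OFF arrays detected 4, 5 and 4 of the 10 probes, and the hSRY-ON arrays also detected 4, 5 and 4. Detection over all probes ranged from 53.8% to 55.9% of the table per array, and the median signal intensity from 200.2 to 219.8. The groups thus did not separate by the number of these probes detected.

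**Figure D1:**
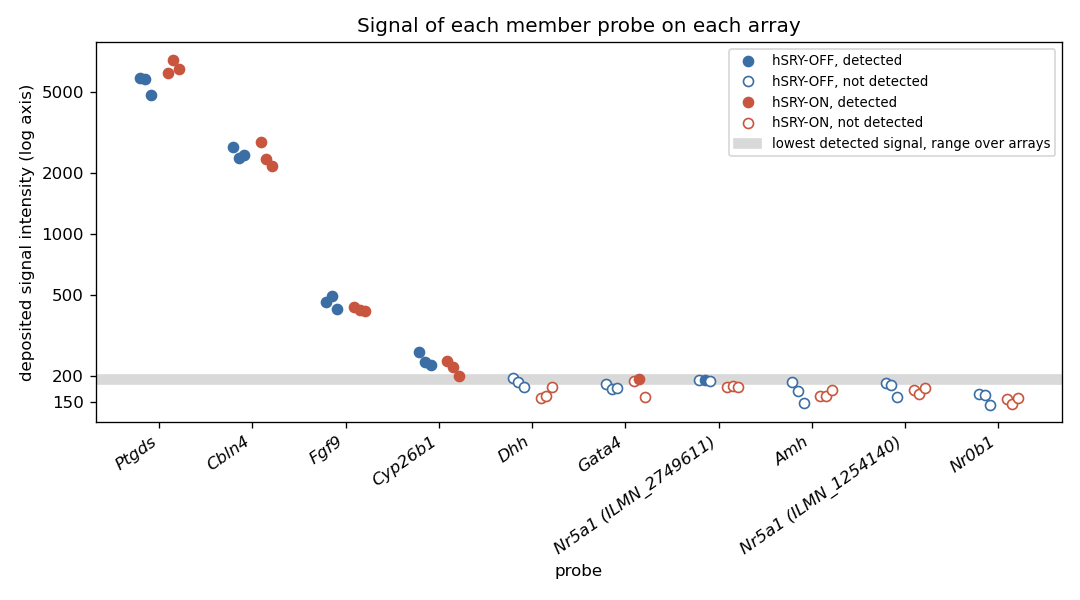
Deposited signal intensity (log axis) of the 10 probes on the 3 hSRY-OFF arrays (blue) and the 3 hSRY-ON arrays (red), with filled points for detected values and a grey band for the range over arrays of the lowest detected signal, 183.9 to 202.5. The probes of Ptgds, Cbln4, Fgf9 and Cyp26b1 are filled on every array, and those of the other 5 genes lie in or below the band. Probes differ in brightness per transcript, so heights are to be compared within a probe.

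Amh and Dhh, which encode secreted signals of the Sertoli cell, were detected on no array. Amh, the hormone that removes the female duct, gave 188.4, 169.0 and 147.6 in hSRY-OFF and 160.7, 160.5 and 171.1 in hSRY-ON. Dhh, the hedgehog ligand of Sertoli and Schwann cells, gave 195.6, 187.4 and 176.8 in hSRY-OFF and 157.4, 160.6 and 177.4 in hSRY-ON. These unnormalized signals of Dhh overlapped at the lower end of the hSRY-OFF arrays. Its normalized log2 values did not overlap (5.06 to 5.32 in hSRY-OFF and 4.58 to 5.04 in hSRY-ON), but all were below detection.

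The genes that encode transcription regulators were likewise not well above background. Gata4, a zinc finger factor of the early gonad and heart, gave 182.4, 173.9 and 174.5 in hSRY-OFF and 190.2, 194.3 and 157.6 in hSRY-ON, and its single detection was on hSRY-ON replicate 2, at a detection p of 0.0213. Nr5a1, the nuclear receptor that works with SRY at the Sox9 enhancer and that marks pituitary gonadotrophs and the ventromedial hypothalamus, gave 191.4, 191.5 and 189.5 in hSRY-OFF and 178.2, 179.3 and 177.7 in hSRY-ON at probe ILMN_2749611. Those unnormalized signals did not overlap between the groups, but the probe was not detected on 5 of the 6 arrays, and its normalized log2 values did overlap (5.14 to 5.44 in hSRY-OFF and 4.96 to 5.24 in hSRY-ON). The single detection of this probe was on hSRY-OFF replicate 2, at a detection p of 0.0464. The other Nr5a1 probe, ILMN_1254140, was detected on no array, with 157.6 to 185.8 in hSRY-OFF and 163.2 to 175.4 in hSRY-ON. Nr0b1, a repressive partner of NR5A1, was detected on no array either, with 144.7 to 164.7 in hSRY-OFF and 146.1 to 156.3 in hSRY-ON. No fold change is given for these 5 genes. At 6 probes and 6 arrays there were 36 readings, of which 2 were detections.

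The comparison of hSRY-ON with hSRY-OFF asked whether activated SRY was accompanied by a change in these genes outside the gonad. It was made on background-corrected, quantile-normalized log2 signals with limma, over the 14215 probes (55.3% of the table) detected on at least 3 arrays. With 4 of the 10 probes among those tested, 0 were called at an adjusted p under 0.05, against 2.17% of all tested probes (0.844% higher and 1.32% lower). At an unadjusted p under 0.05 there was 1 of the 4, Ptgds, against 20.9% of all tested probes (10.1% higher and 10.9% lower). Ptgds was also the only one of the 4 whose groups did not overlap, against 27.7% of all tested probes, with 13.5% higher and 14.2% lower in hSRY-ON. The share of members in each of these counts rests on 4 probes.

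Ptgds was brighter on every hSRY-ON array than on every hSRY-OFF array, but the difference did not pass the adjusted threshold. Its deposited signal was 5841, 5796 and 4849 in hSRY-OFF and 6224, 7226 and 6491 in hSRY-ON. On the normalized log2 scale the values were 12.31, 12.48 and 12.24 in hSRY-OFF and 12.55, 12.88 and 12.65 in hSRY-ON, with the lowest hSRY-ON array close to the highest hSRY-OFF array. The mean level was 12.34 ± 0.12 in hSRY-OFF and 12.69 ± 0.17 in hSRY-ON (SD, n = 3 each). The log2 fold change was 0.35 with a standard error of 0.11 and a 95% confidence interval of 0.08 to 0.62, which is a 1.27-fold difference, and the limma adjusted p was 0.151 (unadjusted 0.0181). Over 16 other settings the log2 fold change stayed between 0.26 and 0.42 and the adjusted p ranged from 0.00759 to 0.31. It passed the threshold under 2 of them, without background correction (0.34, adjusted p = 0.0234) and with a trended, robust prior (0.35, adjusted p = 0.00759).

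The promoter of Ptgds is printed because it is the member that came closest to the threshold, as the 250 bases before its start in RefSeq (GRCm38.p6, chr2:25469750-25469999, minus strand, 5′ to 3′).
Ptgds: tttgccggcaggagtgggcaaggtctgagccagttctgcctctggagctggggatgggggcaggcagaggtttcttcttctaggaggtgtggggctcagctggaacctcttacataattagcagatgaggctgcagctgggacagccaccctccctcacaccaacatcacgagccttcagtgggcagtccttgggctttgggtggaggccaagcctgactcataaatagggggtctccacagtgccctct
It held neither of the searched letters, AACAAT and AACAAAG, both cores of the sequences that SRY and SOX proteins bind, on either strand. Over the 32851 promoters of the table, 9.42% held AACAAT and 5.03% held AACAAAG in a window of this length, and a place can match only 1 of them. Promoters of 6 of the 10 genes were given (Ptgds, Cbln4, Fgf9, Cyp26b1, Dhh and Nr0b1), of which 1 held AACAAT and 0 held AACAAAG.

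**Figure D2:**
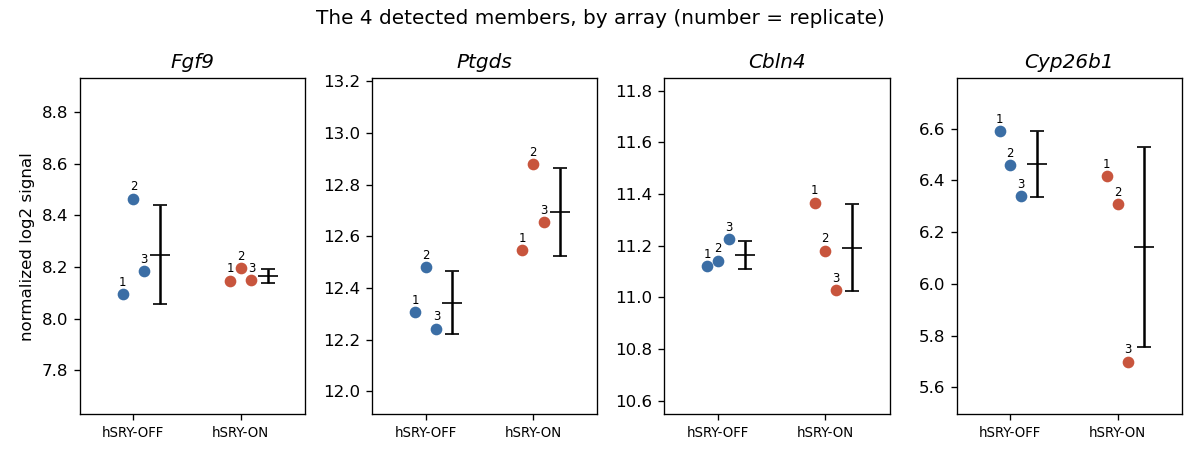
Normalized log2 signal of Fgf9, Ptgds, Cbln4 and Cyp26b1 on each array, with replicate numbers beside the points and the group mean ± SD (n = 3) in black. Each panel spans the same range of log2 units. The hSRY-ON points of Ptgds lie at 12.55 to 12.88, above the hSRY-OFF points at 12.24 to 12.48, and the groups of the other 3 genes overlap.

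Cyp26b1 lay closest to background of the 4, and its groups overlapped. Its deposited signal was 264.7, 236.4 and 227.2 in hSRY-OFF and 238.5, 221.9 and 199.97 in hSRY-ON. Its detection p was 0.0301 on hSRY-ON replicate 3, the array where it was lowest. The normalized log2 values were 6.59, 6.46 and 6.34 in hSRY-OFF and 6.42, 6.31 and 5.70 in hSRY-ON, so that hSRY-ON replicate 3 stood well below the other 5 arrays. The log2 fold change was -0.32 with a standard error of 0.19 and an interval of -0.77 to 0.13 (limma adjusted p = 0.380). Without hSRY-ON replicate 3 it was -0.10 (adjusted p = 0.611). With all arrays kept it was also -0.10 without background correction (adjusted p = 0.422) and -0.18 with an offset of 50 (adjusted p = 0.352), so its size changed with that array and with the background correction. On the second principal component of all tested probes, which held 18.5% of the variance, hSRY-ON replicate 3 also stood apart, at -22.2 against 0.0453 to 8.92 for the other arrays.

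Fgf9 and Cbln4 differed between the groups by less than the spread of the arrays. Fgf9 had deposited signals of 466.0, 496.9 and 427.8 in hSRY-OFF and 441.2, 425.7 and 421.7 in hSRY-ON. Its normalized log2 values were 8.10, 8.46 and 8.18 in hSRY-OFF and 8.15, 8.20 and 8.15 in hSRY-ON, and only hSRY-OFF replicate 2 stood above the rest. The log2 fold change was -0.08 with an interval of -0.34 to 0.18 (limma adjusted p = 0.711), and it turned to 0.03 without hSRY-OFF replicate 2.

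Cbln4 had deposited signals of 2675, 2376 and 2442 in hSRY-OFF and 2846, 2338 and 2167 in hSRY-ON. Its normalized log2 values were 11.12, 11.14 and 11.22 in hSRY-OFF and 11.37, 11.18 and 11.03 in hSRY-ON, and the hSRY-ON arrays spread to both sides of the hSRY-OFF arrays. The log2 fold change was 0.03 with an interval of -0.22 to 0.27 (adjusted p = 0.904), and -0.06 without hSRY-ON replicate 1. The intervals of Fgf9 and Cbln4 hold 0 but do not show that the levels were equal.

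The promoter of Cbln4 is shown because it was the only one of the 6 given that held AACAAT, on its opposite strand and in capitals here, starting 242 bases before the start (RefSeq, GRCm38.p6, chr2:172043467-172043716, minus strand, 5′ to 3′).
Cbln4: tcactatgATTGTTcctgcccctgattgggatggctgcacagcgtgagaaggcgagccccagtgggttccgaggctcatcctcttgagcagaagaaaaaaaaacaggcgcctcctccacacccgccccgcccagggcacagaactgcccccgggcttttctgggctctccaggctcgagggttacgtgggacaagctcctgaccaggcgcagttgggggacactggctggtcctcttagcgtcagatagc
The match is a description of the letters, and the level of Cbln4 is given above.

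The cells known to make Ptgds in brain were read from marker lists. The summed level of 9 choroid plexus markers, in linear normalized units, was 16324 to 19347 in hSRY-OFF and 19716 to 24801 in hSRY-ON. The groups did not overlap, as for Ptgds and for the 13.5% of all tested probes that were higher without overlap. Of their 12 tested probes 1 was called higher, that of the water channel Aqp1 (log2 fold change 0.67, adjusted p = 0.0348), and 7 had an unadjusted p under 0.05, all higher, against 0.844% and 10.1% of all tested probes. The 7 include every Aqp1 probe. Ttr, which encodes the thyroid hormone carrier of the choroid plexus, differed by 0.37 (adjusted p = 0.144). Ttr made up most of the summed level (mean log2 13.89 in hSRY-OFF, against 9.89 for Enpp2, the next brightest), so the sum largely reads 1 gene. The summed level of 9 oligodendrocyte markers was 31830 to 40353 in hSRY-OFF and 24263 to 25094 in hSRY-ON, lower without overlap, as were 14.2% of all tested probes. Mobp, a myelin protein gene, fell by 1.05 (adjusted p = 0.0225) at 1 of its 3 probes and fell by 1.36 (adjusted p = 0.0348) at another. Ugt8a, which makes myelin galactolipids, fell by 0.78 (adjusted p = 0.0396), each on the log2 scale. Of the 15 oligodendrocyte probes, 3 were called lower and 10 had an unadjusted p under 0.05, all lower, against 1.32% and 10.9% of all tested probes.

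The summed level of 12 leptomeningeal genes was 24711 to 25753 in hSRY-OFF and 21957 to 24766 in hSRY-ON, with overlap. Most of that sum was Igf2 (mean log2 14.06 in hSRY-OFF, against 11.46 for Dcn, the next brightest). Of their 14 probes 0 were called in the limma fit, with 3 higher and 3 lower at an unadjusted p under 0.05, against 10.1% and 10.9% of all tested probes. The 3 higher probes were those of Aldh1a2 (0.29 and 0.25) and Slc6a13 (0.25). Lum and Col1a1, both genes of the extracellular matrix, were at -1.09 (adjusted p = 0.0682) and -0.69 (adjusted p = 0.102) on the log2 scale, and both were called without hSRY-ON replicate 3 (adjusted p = 0.0252 and 0.0289). The part of these cell types in the Ptgds difference was not tested.

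**Figure D3:**
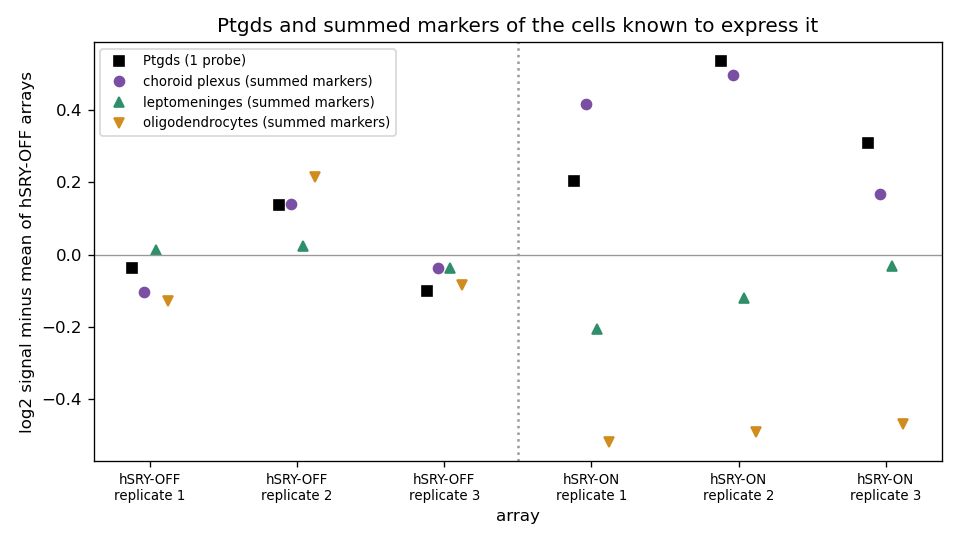
Log2 signal of Ptgds and log2 of the summed markers of choroid plexus, leptomeninges and oligodendrocytes on each array, less the mean of the 3 hSRY-OFF arrays. The summed choroid plexus markers, mostly Ttr, lie above the hSRY-OFF mean on the 3 hSRY-ON arrays, as Ptgds does, and the summed oligodendrocyte markers lie below it.

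The other genes of each pathway were read from lists of receptors, enzymes and relatives. Over 12 lists, 57 of the 109 genes with a probe passed the filter, with 79 probes, of which 2 were called, both higher (2.53%, against 2.17% of all tested probes). At an unadjusted p under 0.05 there were 10 higher and 5 lower, 19.0% of the 79 against 20.9% of all tested probes, and the groups did not overlap at 24.1% of the 79, against 27.7% of all those tested. The median log2 fold change over the 79 probes was 0.05, against 0.0048 over all tested probes. The share called was thus close to the background.

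**Figure D4:**
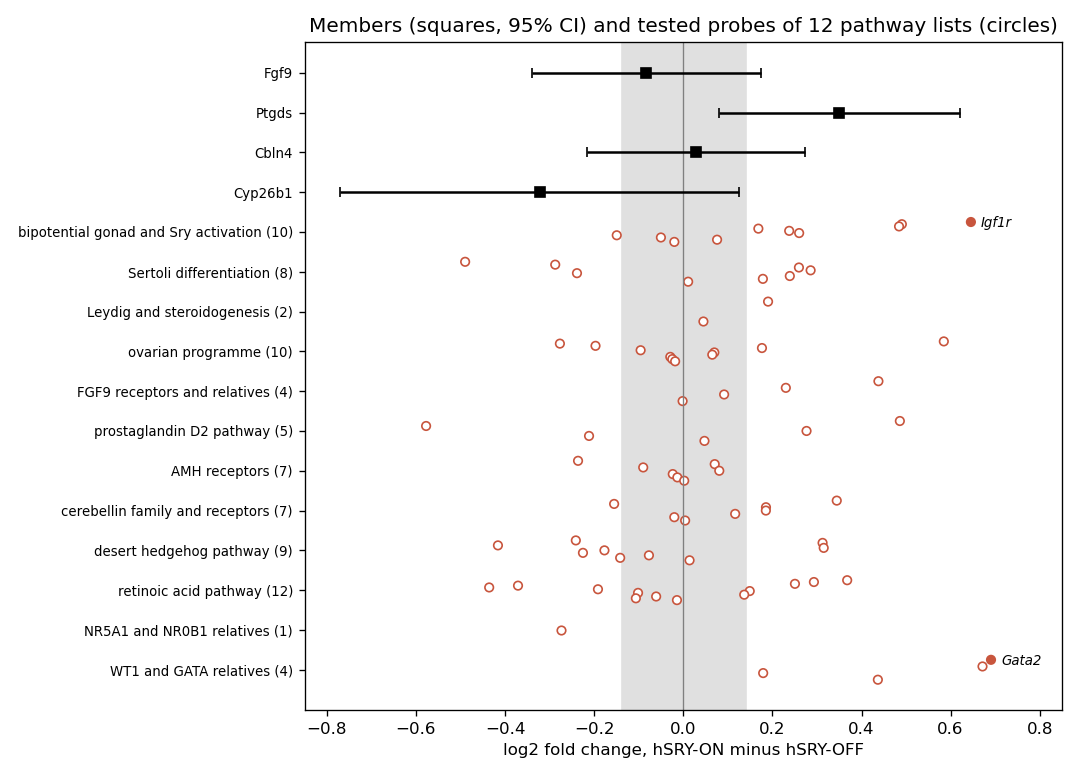
Log2 fold change, hSRY-ON minus hSRY-OFF, of Fgf9, Ptgds, Cbln4 and Cyp26b1 (black squares with 95% confidence intervals) and of the tested probes of the 12 lists (circles, filled where called, with the number of probes in brackets). The grey band holds the middle quartiles of all tested probes, -0.14 to 0.14. Only Igf1r and Gata2 are filled, at 0.65 and 0.69.

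The called probes of these lists belonged to Igf1r and Gata2. Igf1r, the receptor for insulin-like growth factors whose signal contributes to Sry expression in the gonad, rose from 7.55 ± 0.02 to 8.20 ± 0.11 (SD, n = 3), a log2 fold change of 0.65 (standard error 0.08, limma adjusted p = 0.0263). Gata2, a relative of Gata4 that specifies midbrain and brainstem neurons as well as blood cells, rose from 7.37 ± 0.10 to 8.06 ± 0.12, a log2 fold change of 0.69 (standard error 0.10, limma adjusted p = 0.0294). Each was called without hSRY-ON replicate 3 but not without any of the other 5 arrays, where its adjusted p reached 0.109 and 0.111. Their log2 fold changes over all 16 other settings lay between 0.39 and 0.69 for Igf1r and between 0.40 and 0.75 for Gata2, lowest without background correction for each. The remaining GATA and WT1 relatives that passed, Wtap, Gata3 and Wtip, had log2 fold changes of 0.67 (adjusted p = 0.0595), 0.44 (adjusted p = 0.310) and 0.18 (adjusted p = 0.275) and were not called. Wtap was called without background correction, with an offset of 50 and with the trended, robust prior. Gata1, Gata5 and Gata6 were detected on no array.

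For the FGF9 receptors and relatives 3 of 6 genes passed, all of them receptors, 0 of 4 probes were called and 0 had an unadjusted p under 0.05. Fgfr1 had a log2 fold change of 0.44 (adjusted p = 0.241), and it was called without hSRY-ON replicate 3, at 0.65 (adjusted p = 0.0453), but was at 0.27 (adjusted p = 0.469) without hSRY-ON replicate 1. Fgfr3, the receptor that FGF9 binds well, had 0.23 (adjusted p = 0.386) and 0.09 at its probes, the former 0.12 without hSRY-ON replicate 1 and 0.13 without hSRY-OFF replicate 1. In the prostaglandin D2 pathway 5 of 9 genes passed and 0 were called, with 1 higher and 1 lower at an unadjusted p under 0.05, against 10.1% and 10.9% of all tested probes. The higher was Slco2a1, a prostaglandin transporter, at 0.49 (adjusted p = 0.161; 0.31 without hSRY-ON replicate 2). The lower was Hpgds, the haematopoietic counterpart of Ptgds listed under its older symbol Ptgds2, at -0.58 (adjusted p = 0.164; -0.35 without hSRY-ON replicate 3). Both were smaller without background correction, at 0.20 and -0.17, and with an offset of 50, at 0.31 and -0.30. Ptgs2, which makes the precursor of prostaglandin D2, and the receptors Ptgdr and Gpr44 were detected on no array.

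Of the genes for AMH reception 4 of 4 passed, 0 of 7 probes were called and 1, of Bmpr1a, was lower at an unadjusted p under 0.05, against 10.9% of all tested probes. That probe of Bmpr1a, a type I receptor, was at -0.24 (adjusted p = 0.219) and its other probe at 0.07. Amhr2, the receptor that binds AMH, passed the filter at both probes although Amh did not, at -0.09 (adjusted p = 0.856) and 0.002 on the log2 scale. Both Amhr2 probes lay near background, with group means of 5.43 to 5.52 on the normalized log2 scale. In the hedgehog list 4 of 9 genes passed and 0 of 9 probes were called, none at an unadjusted p under 0.05. Smo, the signal transducer, gave -0.24 (adjusted p = 0.262; -0.16 without hSRY-ON replicate 1), -0.08 and 0.01, and Hhat, which adds palmitate to the ligands, gave 0.31 (adjusted p = 0.350; 0.15 without hSRY-OFF replicate 2 and 0.49 without hSRY-OFF replicate 1), 0.32 and -0.23, so that the probes of each of these genes differed in sign. Gli1, a hedgehog target, was detected on no array.

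Of the cerebellins and their receptors 5 of 6 genes passed, with 0 of 7 probes called and 0 at an unadjusted p under 0.05. Cbln2 had a log2 fold change of 0.34 (adjusted p = 0.255) and Cbln1, the cerebellin of granule cells, -0.16 (adjusted p = 0.380; -0.079 without hSRY-OFF replicate 2). In the retinoic acid pathway 8 of 14 genes passed and 0 of 12 probes were called. At an unadjusted p under 0.05 there were 3, all higher, against 10.1% of all tested probes. Both probes of Aldh1a2, which makes retinoic acid, were among the 3, at 0.29 (adjusted p = 0.158) and 0.25 (adjusted p = 0.160). Aldh1a2 is also a marker of leptomeninges. Cyp26a1, the relative of Cyp26b1, and Stra8, a germ cell gene switched on by retinoic acid, were detected on no array.

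Of the relatives and targets of NR5A1 and NR0B1, 1 of 7 genes passed, Bdnf, at -0.28 (adjusted p = 0.386; -0.10 without hSRY-ON replicate 3 and -0.43 without hSRY-ON replicate 2), and 0 had an unadjusted p under 0.05. Nr5a2, Nr0b2 and the gonadotropin genes Cga, Lhb and Fshb were detected on no array.

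The gonadal stages were read in the same way. Of the genes of the bipotential gonad 7 of 13 passed, and Igf1r was the only call among 10 probes, against 0.844% of all tested probes called higher. At an unadjusted p under 0.05, 3 probes were higher and 0 lower, against 10.1% and 10.9% of all tested probes. Of the Sertoli genes 7 of 13 passed with 0 of 8 probes called. At an unadjusted p under 0.05, 2 were lower, Aard and Gdnf. Aard was at -0.49 (adjusted p = 0.106). It was called in 4 of 16 other settings, among them without hSRY-ON replicate 3 (adjusted p = 0.0376) and without background correction (adjusted p = 0.00956). Gdnf was at -0.29 (adjusted p = 0.145) and lay near background (means of 5.56 in hSRY-OFF and 5.27 in hSRY-ON). Left out singly, each hSRY-OFF array removed Gdnf from the test and no hSRY-ON array did. Without background correction Gdnf was at -0.08 (adjusted p = 0.519). Sox9, the direct target of SRY in the gonad, had a log2 fold change of 0.01 with an interval of -0.29 to 0.31 (adjusted p = 0.974). Of the Leydig genes 2 of 9 passed and 0 were called or had an unadjusted p under 0.05, with Pdgfra at 0.19 (adjusted p = 0.254) and Cyp11a1 at 0.05 (adjusted p = 0.896). Cyp11a1 lay near background (means of 5.38 in hSRY-OFF and 5.42 in hSRY-ON) and was tested in only 3 of the 6 fits with an array left out. Of the ovarian genes 7 of 12 passed and 0 of 10 probes were called, with Fst, the activin antagonist, at 0.58 (adjusted p = 0.0565) and Axin2, a Wnt target, at -0.28 (adjusted p = 0.129) the only ones at an unadjusted p under 0.05. Over all tested probes 10.1% were higher and 10.9% lower at that level. Fst was called with an offset of 50 (adjusted p = 0.0434) and with the trended, robust prior (adjusted p = 0.0473). Without background correction Fst was at 0.21 and not called, and Axin2 was called (adjusted p = 0.041). Foxl2 was detected on no array.

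Markers of the gonad, the pituitary and the cells of brain were read as well. Of 8 testis somatic markers only Inha passed (0.26, adjusted p = 0.341; 0.10 without hSRY-OFF replicate 1), and Insl3, Star and Cyp17a1 were detected on no array. Of 8 germ cell markers only Tex14 passed, and it fell by 1.11 (adjusted p = 0.0348). Without background correction it fell by 0.42, and with an offset of 50 it fell by 0.67, and it was called in 7 of 15 other settings. Dazl and Ddx4 were each detected on 1 array. Of 12 pituitary and hypothalamic hormone genes 6 passed and 0 were called, with 2 higher at an unadjusted p under 0.05, against 10.1% of all tested probes. Avp was at 1.20 (adjusted p = 0.0680) and Gh at 0.94 (adjusted p = 0.236), and each was called without hSRY-ON replicate 3, at 1.51 (adjusted p = 0.0219) and 1.42 (adjusted p = 0.0363). Gh lay near background in hSRY-OFF (mean 5.10) and was tested in only 3 of the 6 fits with an array left out. Of the markers of the labelled tissue Stmn2, Syt1, Gfap, Aqp4 and Mbp passed the filter, although the probes of Snap25 and Nefl were detected on no array. Gap43, a growth cone protein gene, rose by 0.45 (adjusted p = 0.0479), the 1 call among 4 neuronal probes, against 0.844% of all tested probes called higher. The other neuronal genes, Stmn2, Syt1 and Tubb3, were at 0.08, -0.07 and -0.02. Aqp4 and Gfap, genes of astrocytes, fell by 0.81 (adjusted p = 0.0275) and 0.83 (adjusted p = 0.0308), the 2 calls among 9 astrocyte probes, against 1.32% of all tested probes called lower. At an unadjusted p under 0.05, 4 of the 9 were lower, against 10.9% of all tested probes. Not all astrocyte genes fell, since Gja1 was at -0.04, Slc1a3 at 0.03 and Slc1a2 at -0.22 and 0.03. With an array left out, Mobp, Aqp1, Aqp4, Gfap and Tex14 were called at their leading probe without hSRY-ON replicate 3 and in no other case, and Ugt8a and Gap43 in no case. With no filter and with detection on at least 1 array the calls of Aqp1, Tex14, Ugt8a and Gap43 were lost (adjusted p = 0.0507 to 0.0802), and with median scaling that of Gap43 (adjusted p = 0.0769). Without background correction all of these stayed called, although Mobp, Gfap and Aqp1 were smaller, at -0.66, -0.51 and 0.43.

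The tested probes whose levels followed each gene most closely over the 6 arrays were named by Pearson's r, as a description without a test. For Ptgds they were Rchy1 (0.988), Slc6a15 (0.987) and Gm1141 (0.986). For Cyp26b1 they were Coq4 (0.991), Astn2 (0.990) and Plxna2 (0.989). For Fgf9 they were Fam108a (0.975), Tor1a (0.972) and Dak (0.964), and for Cbln4 6530406M24Rik (0.997), Vav2 (0.984) and LOC100046891 (0.980). The points share their arrays and their normalization.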

How the data were processed

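Whole brain RNA was purified with a Trizol Plus kit, amplified to biotinylated cRNA and hybridized to Illumina MouseRef-8 v2.0 arrays, 3 for each genotype. The authors deposited, for each probe and array, a mean bead signal intensity without normalization and a detection p-value, whose steps fit 798 negative controls. The labels name limma, and the package TCC is named in the study's methods but was not used here. Samples were grouped by their titles, and the labels give each as a separate sample.

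In R 4.3.3 with limma 3.58.1, signals were background corrected from the detection p-values (normexp, offset 16), quantile normalized and put on the log2 scale. Dim probes spread more after this correction. The filter kept probes detected (p under 0.05) on 3 or more of the 6 arrays, which were fitted with lmFit and eBayes, with the group as the only term (two-sided), and adjusted by Benjamini-Hochberg over all tested probes. Every adjusted p is from this fit unless another setting is named. The steps were tested on simulated data. The number of arrays limits the precision. Promoters came from a RefSeq table of GRCm38.p6. Python 3.11.15 and matplotlib 3.10.9 made the figures.

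The genes and lists were chosen with earlier results of these data known. All listed testis-programme genes were named, with every called gene of each list, or, in a list without a call, the 2 genes of smallest unadjusted p, and the 3 probes nearest in pattern to each tested gene. For 1 gene named by this rule, the result is not reported here. Other genes, such as Sox9, Ttr, Wtap, Gata3, Wtip and those not detected, were chosen after their values were seen. Alternatives were other background corrections, normalizations, filters, priors and weights, a replicate block and leaving out each array.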

Additional observations from a re-analysis of the deposited data

How the results depend on the processing

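Among all tested probes 308 were called (120 higher, 188 lower) in the reported fit, against 1317 (574 higher) without background correction, 860 (360 higher) with normexp on the signals at an offset of 50, 480 (184 higher) with array weights and 1447 (654 higher) with a trended, robust prior. With no filter 123 were called, with detection on at least 1 array 130, and with detection at p under 0.01 on all arrays 705. Median scaling (332) and cyclic loess (338) stayed within 1.5 times, although median scaling gave 109 higher and 223 lower. Leaving out each array gave 0 to 417 calls, with 417 without hSRY-ON replicate 3 and at most 1 without any other array, while 2236 to 3150 probes had an unadjusted p under 0.05. Of the testis-programme probes 1, Ptgds, was called without background correction and with the trended, robust prior, and 0 were called in the other settings, each array left out included. With no filter all 10 probes were tested, and Ptgds and Dhh had an unadjusted p under 0.05, although Dhh was detected on no array. Of the pathway probes, 2 in the reported fit, 7 were called without background correction, 6 with an offset of 50, 7 with the trended, robust prior, and 0 to 4 with an array left out (4 without hSRY-ON replicate 3). Readings of the 10 probes that were detected numbered 26 of 60, and 23 at p under 0.01. With an array left out, the log2 fold change spanned -0.16 to 0.03 for Fgf9, -0.058 to 0.11 for Cbln4, -0.33 to 0.0773 for Amhr2 and -0.0708 to 0.14 for Cyp11a1, so that these changed sign, and 0.26 to 0.42 for Ptgds and -0.46 to -0.10 for Cyp26b1. Cyp26b1 could not be tested under the strict detection filter. The causes were not tested.

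With the replicate number as a block, 0 probes were called (2906 at an unadjusted p under 0.05) and 0 of the pathway probes, and Ptgds had an adjusted p of 0.141. Samples of the same number deviated from their group means with correlations of 0.040, 0.029 and 0.025, too low to treat the numbers as pairs, although each sample correlated best with its own number.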
